A study of Mus musculus with 6 samples.

Results

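Mouse adipocytes of gonadal white fat and of interscapular brown fat, the depot that lies over the upper back, were compared over 17720 genes on 4 of the 6 arrays of the series. The arrays were chosen by title alone, 2 for each depot, and no measured value entered the choice. White adipocytes came from gonadal fat, and brown adipocytes came from dorsal intrascapular fat from which the surrounding white fat had been trimmed. In both depots the tissue was digested with collagenase, floating cells were recovered, about 5000 cells at a time were sorted by flow cytometry, RNA of at least 6 sorts was pooled per sample, and the pooled RNA was amplified before hybridization. The remaining 2 arrays held adipocytes descended from transplanted bone marrow, marked with GFP or LacZ and recovered from gonadal fat. They served here to estimate the spread between replicates and, where a result turns on them, as a further level beside the others. The labels name no transgene, treatment, strain, sex or age for the white and brown cells, and the sorting gate is described for the marked cells only. The arrays are labelled as biological replicates, but separate animals are not mentioned, and a p-value here reflects only how far these samples scatter, which may be technical.

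Brown adipocytes are packed with mitochondria and release the energy of fatty acid oxidation as heat through the uncoupling protein Ucp1, whereas white adipocytes store triglyceride in a large droplet and secrete hormones such as leptin. Both cell types depend on the nuclear receptor Pparg and share the machinery of lipid storage. Interscapular brown fat arises from the paraxial mesoderm that also forms dorsal muscle and skin, while gonadal white fat is a visceral depot covered by mesothelium.

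Levels are given on the log2 scale, on which the table ran from 1.67 to about 14. An adjusted p is limma's, after Benjamini-Hochberg adjustment over all genes, and a gene was called where it lay below 0.05. A value after ± is limma's standard error of the log2 difference, brown minus white, with n = 2 arrays per group. Of the 17720 genes 946 (5.34%) were called higher in brown and 686 (3.87%) higher in white, and 832 and 626 of these differed at least 2-fold. At least 16-fold differences were found in 45 genes higher in brown and 38 higher in white. Without regard to the test, both brown arrays lay above both white arrays in 29.7% of genes and both white arrays above both brown arrays in 32.4%. These shares are the background for every count of non-overlapping genes given here. The shares of 5.34% and 3.87% are the background for every count of called genes. The median difference over all genes was -0.02.

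Replicates were closer than depots, with a root mean square log2 difference of 0.59 for the white arrays, 0.40 for the brown arrays and 0.97 to 1.05 between a white and a brown array. The marrow-derived pair, at 0.77, was the least alike, and it adds to the spread that each gene is tested against. With the 4 white and brown arrays alone 1215 genes (6.86%) were called higher in brown and 1036 (5.85%) higher in white, and 915 and 659 of them were among the calls above. An exact permutation test of 2 arrays against 2 cannot give a p below 0.333, so the calls lean on the spread that limma shares across genes. They also lean on both brown arrays, the closer pair. Without brown replicate 1 limma called 7 genes higher in brown and 0 higher in white, with 1515 and 1269 at an unadjusted p under 0.05. Without brown replicate 2 it called 5 and 0, with 1822 and 1410 at an unadjusted p under 0.05. Without white replicate 1 it called 516 and 321, and without white replicate 2 it called 341 and 391. Slc27a2, Lgr6, Zic1 and the unnamed transcript model 9130214F15Rik were called without either brown array. Elovl3, Slc2a5 and Sorcs2 were called without brown replicate 1, and Perm1 without brown replicate 2, and every other call given here was lost whichever brown array was left out.

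**Figure D1:**
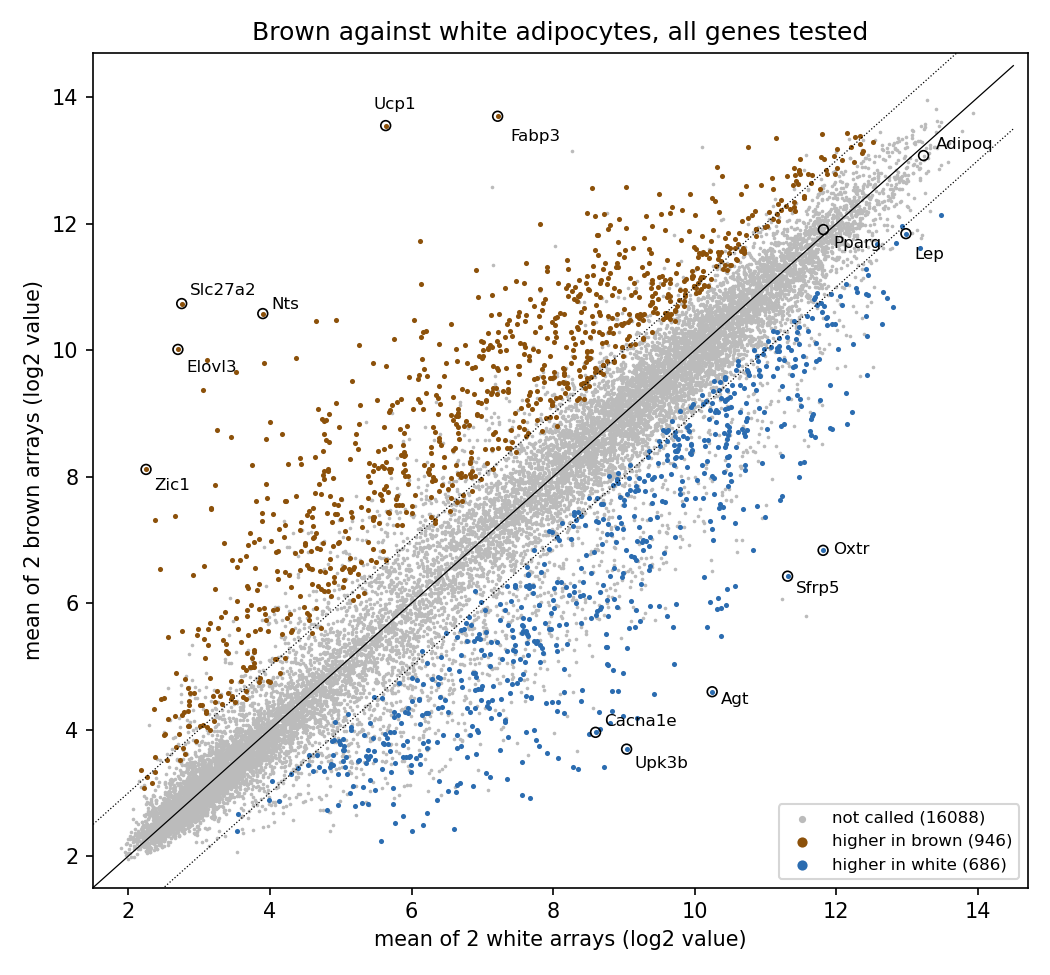
Mean log2 value of each of 17720 genes on the 2 white arrays (horizontal axis) and the 2 brown arrays (vertical axis), with the 946 genes called higher in brown in brown, the 686 called higher in white in blue and the rest in grey. The solid line marks equal values and the dotted lines a 2-fold difference, and Ucp1, Fabp3, Slc27a2, Elovl3, Nts and Zic1 lie far above the lines while Adipoq and Pparg lie between them.

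The list called thermogenic effectors had the largest median difference of the 56 gene lists examined. It also holds genes of other functions, such as Cpn2 and S100b, and it was chosen with earlier results of these data known. Of 19 measured thermogenic effectors 12 (63.2%) were called higher in brown and 0 higher in white, against 5.34% and 3.87% of all genes, and the list's median difference was 4.03. Both brown arrays lay above both white arrays in 18 of the 19, the exception being Cited1 at -0.28. The mean level of the list was 7.42 and 6.74 on the white arrays and 11.06 and 11.17 on the brown arrays. With the 4 arrays alone 17 of the 19 were called higher in brown.

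Ucp1, the uncoupling protein that dissipates the mitochondrial proton gradient as heat, read 6.43 and 4.84 on the white arrays and 13.58 and 13.53 on the brown arrays. The brown arrays were close together and near the top of the scale, and the white arrays were far below and apart from each other. The difference was 7.92 ± 0.98 (adjusted p = 0.0148), or 242-fold. Slc27a2, a very long-chain acyl-CoA synthetase and fatty acid transporter, read 2.73 and 2.77 on the white arrays and 11.02 and 10.45 on the brown arrays. It lay near the bottom of the table in white and high in brown, a difference of 7.98 ± 0.24 (adjusted p = 0.00137). These were the largest log2 differences among the called genes, and the 250 bases before the start of each gene are shown for that reason. They are given 5′ to 3′ on the gene's own strand, from RefSeq's GRCm38.p6 annotation. The capitals mark AGGTCA, the core element bound by nuclear receptors, which in Slc27a2 stands on the opposite strand and so reads TGACCT.
Ucp1 chr8:83290098-83290347 (+ strand): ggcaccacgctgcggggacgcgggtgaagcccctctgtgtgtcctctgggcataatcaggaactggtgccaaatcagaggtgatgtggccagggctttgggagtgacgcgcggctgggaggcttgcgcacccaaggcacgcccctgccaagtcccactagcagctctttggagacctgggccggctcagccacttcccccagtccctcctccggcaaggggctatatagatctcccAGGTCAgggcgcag
Slc27a2 chr2:126552774-126553023 (+ strand): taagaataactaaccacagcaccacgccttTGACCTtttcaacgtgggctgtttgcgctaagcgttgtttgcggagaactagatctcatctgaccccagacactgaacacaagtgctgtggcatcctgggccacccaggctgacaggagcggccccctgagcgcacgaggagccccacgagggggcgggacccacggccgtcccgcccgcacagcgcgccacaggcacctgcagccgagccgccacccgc
The element begins at position -14 from the start of Ucp1 and at position -220 from the start of Slc27a2. On either strand AGGTCA was found in 14.1% of 17577 promoters of tested genes, from 250 bases before to 50 bases after the start, in 15.2% of those of genes called higher in brown and in 12.8% of those called higher in white. Such a short element recurs by its length alone, and a match here is a description of these letters and not of binding.

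Elovl3, which elongates fatty acids in cold-exposed brown fat, read 2.92 and 2.48 in white and 9.09 and 10.93 in brown. The groups were far apart although the brown arrays differed by more than the white ones, and the difference was 7.31 ± 0.61 (adjusted p = 0.00776). Fabp3, a cytosolic fatty acid carrier of oxidative tissues, read 8.41 and 6.02 in white and 13.74 and 13.66 in brown (6.48 ± 0.97, adjusted p = 0.021). Its white arrays spread widely, with replicate 1 the higher, as they did for Ucp1. Cpn2, a subunit of plasma carboxypeptidase N, read 4.04 and 3.01 in white and 9.54 and 9.77 in brown (6.13 ± 0.36, adjusted p = 0.00472). Ntrk3, a neurotrophin receptor, read 6.56 and 5.71 in white and 10.97 and 11.12 in brown (4.91 ± 0.31, adjusted p = 0.0049). In each of these genes every brown array exceeded every white array by several log2 units. Among the smaller differences, S100b, a calcium-binding protein, differed by 3.15 ± 0.38 (adjusted p = 0.0141), and Pank1, which starts coenzyme A synthesis, by 4.35 ± 0.41 (adjusted p = 0.0098). The mitochondrial thioesterase Acot2, the potassium channel Kcnk3 and Letmd1, a protein of the inner mitochondrial membrane, were called higher by 0.95, 1.36 and 1.54.

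Several well-known brown fat genes missed the threshold although their white and brown arrays lay far apart, and they are named here after their values were seen. Cidea, a lipid droplet protein, read 9.03 and 7.50 in white and 13.16 and 13.15 in brown, a difference of 4.89 ± 1.57 (adjusted p = 0.127). Its marrow-derived arrays read 8.53 and 3.66, which lie about as far apart as the depots. With the 4 arrays alone its adjusted p was 0.0135. Acot11 (5.45, adjusted p = 0.0568), the muscle-type cytochrome oxidase subunit Cox8b (3.11, adjusted p = 0.185), the proton channel Otop1 (3.41, adjusted p = 0.17) and Dio2, which activates thyroid hormone (2.43, adjusted p = 0.172), showed the same arrangement. Each of these 4 passed with the 4 arrays alone, at adjusted p = 0.0148, 0.0101, 0.03 and 0.0372.

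**Figure D2:**
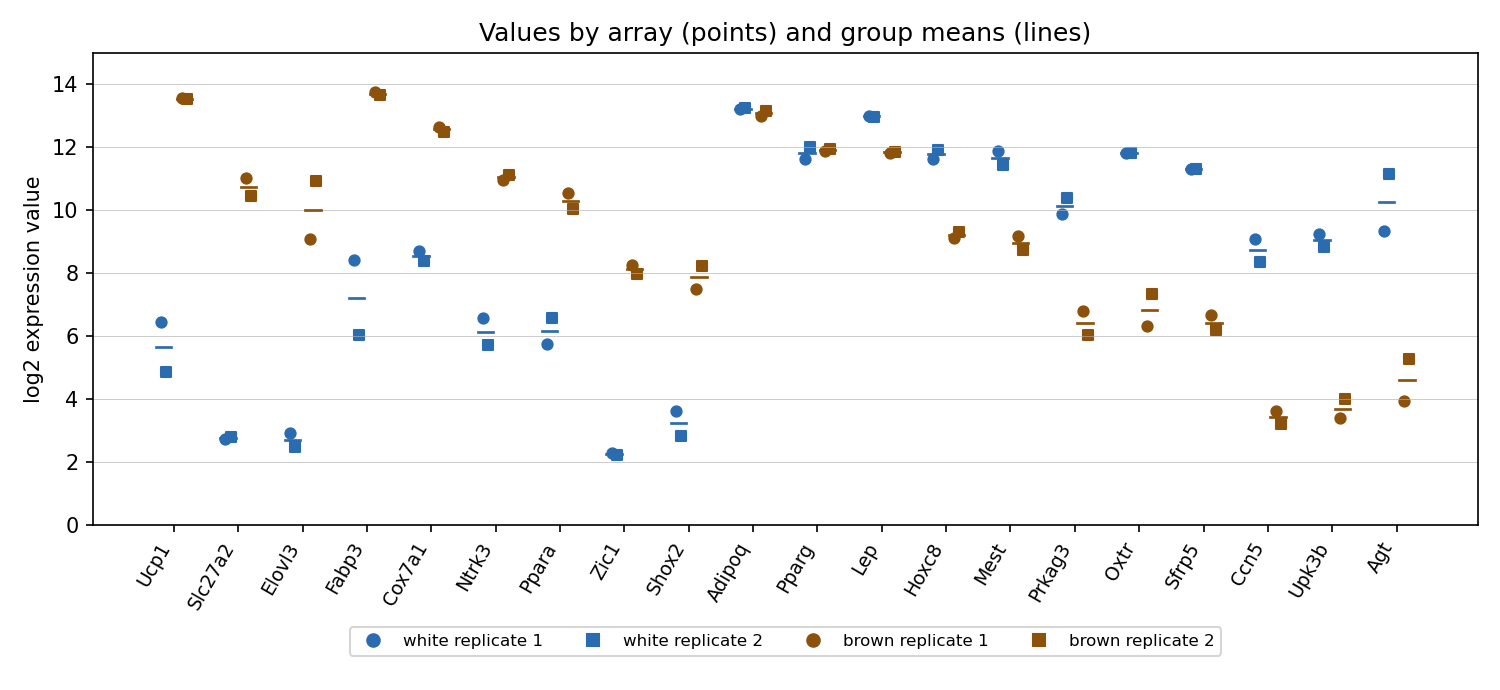
Log2 expression value (vertical axis) of 20 genes on each white (blue) and brown (brown) array, with circles for replicate 1, squares for replicate 2 and short lines for the mean of 2 arrays. The genes from Ucp1 to Shox2 have both brown arrays above both white arrays, Adipoq and Pparg lie level, and the genes from Lep to Agt have both white arrays on top.

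Regulators of the brown lineage were called higher in brown in 10 of 24 members (41.7%) and higher in white in 0, with a median of 0.92. Zic1, a zinc finger transcription factor of dorsal mesoderm, read 2.29 and 2.21 in white and 8.25 and 7.98 in brown. It sat near the bottom of the table on both white arrays, and the difference was 5.87 ± 0.18 (adjusted p = 0.00137). The nuclear receptor Ppara, which drives fatty acid oxidation genes, read 5.75 and 6.57 in white and 10.54 and 10.05 in brown (4.13 ± 0.46, adjusted p = 0.0123). Esrrg, an estrogen-related receptor, read 7.43 and 6.59 against 10.15 and 10.11 (3.11 ± 0.30, adjusted p = 0.0101). Neither gene's arrays overlapped between the depots. The related receptor Esrra differed by 1.10 ± 0.20 (adjusted p = 0.0327), and Perm1, a muscle regulator induced by these receptors and named here after its values were seen, read 3.91 and 4.09 against 9.35 and 8.38.

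Prdm16, which directs the brown fate, read 9.15 and 8.39 in white and 10.62 and 10.45 in brown (1.77 ± 0.36, adjusted p = 0.0444). With the mean of all its probe sets Prdm16 was not called. Mecom, its closest relative, differed by 2.44 ± 0.36 (adjusted p = 0.02). Of the coactivators of mitochondrial biogenesis, Ppargc1b read 6.68 and 6.89 in white and 9.93 and 9.68 in brown (3.02 ± 0.19, adjusted p = 0.00497). Ppargc1a read 7.18 and 7.57 against 9.0 and 9.40, a difference of 1.82 ± 0.47 that missed the threshold (adjusted p = 0.0757). With the 4 arrays alone its adjusted p was 0.0184. Ebf2, an early factor of brown precursors, read 9.38 and 9.82 in white and 10.25 and 10.52 in brown (0.78 ± 0.25, adjusted p = 0.122), so its arrays did not overlap but it was not called by either fit. The homeobox gene Meox2 (3.11 ± 0.37) and the T-box gene Tbx15 (3.22 ± 0.38) were also called higher in brown. Meox2 is also an endothelial gene, and endothelial markers were higher in brown as described further on.

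Genes shared by all adipocytes did not pass the test. Of 16 general adipocyte genes 0 were called by limma in either direction, with a median of -0.16, and with the 4 arrays alone 2 were called each way. Adiponectin, Adipoq, the most abundant hormone of fat cells, read 13.22 and 13.24 in white and 13.01 and 13.15 in brown. Its 4 arrays lay close together, with a difference of -0.15 ± 0.30 (adjusted p = 0.789). Pparg read 11.63 and 12.01 in white and 11.88 and 11.93 in brown, so the brown arrays fell inside the white range (0.09 ± 0.20, adjusted p = 0.823). Fabp4, the fatty acid carrier of all adipocytes, differed by 0.14 ± 0.17 (adjusted p = 0.658). The largest difference in the list was in Klf15, a glucocorticoid-responsive factor of late adipogenesis, at -1.35 ± 0.50 (adjusted p = 0.172). A p above the threshold does not show that these levels were equal.

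Mitochondrial oxidation genes were called higher in brown more often than the genes of the whole table, with median differences below that of the thermogenic effectors. In the tricarboxylic acid cycle and its entry complexes 14 of 22 members were called higher in brown and 0 higher in white (63.6% and 0%, against 5.34% and 3.87% of all genes), with a median of 1.11, and both brown arrays lay above both white arrays in 21. The largest differences were in the pyruvate dehydrogenase complex. Its acetyltransferase Dlat read 10.33 and 10.34 in white and 12.26 and 12.12 in brown (1.85 ± 0.21, adjusted p = 0.0124), and its binding protein Pdhx differed by 1.67 ± 0.19 (adjusted p = 0.0123). The oxoglutarate dehydrogenase Ogdh read 11.04 and 11.14 against 12.90 and 12.54 (1.63 ± 0.19, adjusted p = 0.0131), and its partner Dlst differed by 1.35 ± 0.16. Suclg1, a subunit of succinyl-CoA ligase, differed by 1.48 ± 0.19. The citrate synthase gene Cs (0.42) and the mitochondrial malate dehydrogenase Mdh2 (0.48) were not called, and pyruvate carboxylase, Pcx, was the only member with a negative difference, at -0.14.

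Of 20 genes of mitochondrial fatty acid oxidation 8 were called higher in brown and 1 higher in white, with a median of 0.95, and 19 had both brown arrays above both white arrays. Hadha, the long-chain trifunctional enzyme's alpha subunit, read 10.36 and 10.23 in white and 12.30 and 12.43 in brown (2.07 ± 0.19, adjusted p = 0.00923). The acyl-CoA dehydrogenases Acadvl and Acads differed by 1.61 ± 0.27 and 1.28 ± 0.23, the thiolase Acaa2 by 1.3 ± 0.21 and the electron transfer enzyme Etfdh by 1.34 ± 0.16. The single gene called the other way was Cpt1a, the liver-type form of the carnitine transferase that admits fatty acids into mitochondria. Cpt1a read 9.83 and 9.58 in white and 8.67 and 8.33 in brown (-1.20 ± 0.23, adjusted p = 0.0374), so both white arrays lay above both brown arrays.

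In the respiratory chain both brown arrays lay above both white arrays in nearly all subunits, mostly by less than 2-fold. Complex I had 9 of 34 members called higher in brown and 0 higher in white (median 0.57), and both brown arrays lay above in 33. Complex II had 2 of 4 called (median 0.89), complex III 5 of 9 (median 0.78) and complex IV 4 of 15 (median 0.44), all higher in brown. The called members of the complex IV list include Cycs, cytochrome c, which is not a subunit of the complex. Ndufs1, the largest subunit of complex I, read 11.24 and 11.38 in white and 12.87 and 12.64 in brown (1.45 ± 0.19, adjusted p = 0.0165). Cyc1, the cytochrome subunit of complex III, differed by 1.44 ± 0.20, Uqcrc1 by 1.37 ± 0.16 and Sdhb of complex II by 1.27 ± 0.25. The largest difference in complex IV was in Cox7a1, the subunit of complex IV found in muscle and brown fat, which is also counted among the thermogenic effectors. Cox7a1 read 8.71 and 8.38 in white and 12.64 and 12.50 in brown, a difference of 4.03 ± 0.40 (adjusted p = 0.0105), or 16.3-fold. The ubiquitous subunits of complex IV differed far less, with Cox4i1 at 0.43 ± 0.15 (adjusted p = 0.156) and Cox5a at 0.76 ± 0.15 (adjusted p = 0.0402).

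Of 16 measured genes of ATP synthase 0 were called higher in brown and 1 higher in white, with a median of 0.36, although both brown arrays lay above both white arrays in 12. The gene called higher in white was Atp5g1, which encodes subunit c, the ring of the membrane rotor. Atp5g1 read 11.46 and 11.44 in white and 10.14 and 10.43 in brown (-1.16 ± 0.18, adjusted p = 0.0237). With the mean of all its probe sets the difference was -0.57 and the call was lost (adjusted p = 0.0762). Under limma's trended, robust prior 8 of the 16 genes were called higher in brown and 2 higher in white. The other subunit c genes showed no such gap, with Atp5g2 at 0.19 and Atp5g3 at -0.04. The inhibitor of the synthase, Atpif1, differed by -1.04 and was not called, and the catalytic subunit Atp5b differed by 0.49 ± 0.16 (adjusted p = 0.131).

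The cAMP response element TGACGTCA, which is its own reverse complement, was looked for in the promoters because adrenergic signals reach brown adipocytes through cAMP. Over the oxidation, respiratory chain and cycle lists, a set put together after the values were seen, 6 of 84 genes with a promoter in the table held it (7.14%), against 418 of 13995 tested genes (2.99%). Among the 34 of these genes that were called higher in brown it was held by 4, namely Ndufa10, Cycs, Ogdh and Uqcrfs1. By promoter, the element was in 2.54% of those of all tested genes, in 1.56% of those of genes called higher in brown and in 0.602% of those called higher in white. The 250 bases before the start are shown for 3 of those genes, with the element in capitals, since they are genes of electron transport that hold the full element.
Ndufa10 chr1:92473759-92474008 (- strand): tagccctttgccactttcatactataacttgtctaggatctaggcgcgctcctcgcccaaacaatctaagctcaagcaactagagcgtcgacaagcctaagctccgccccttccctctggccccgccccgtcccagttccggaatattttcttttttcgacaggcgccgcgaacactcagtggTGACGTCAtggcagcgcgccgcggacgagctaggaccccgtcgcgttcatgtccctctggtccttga
Cycs chr6:50566570-50566819 (- strand): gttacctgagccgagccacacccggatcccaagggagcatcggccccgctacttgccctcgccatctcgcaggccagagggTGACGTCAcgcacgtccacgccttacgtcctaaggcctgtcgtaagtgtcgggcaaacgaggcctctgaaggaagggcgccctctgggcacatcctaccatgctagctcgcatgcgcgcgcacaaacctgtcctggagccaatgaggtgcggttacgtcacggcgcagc
Uqcrfs1 chr13:30545317-30545566 (- strand): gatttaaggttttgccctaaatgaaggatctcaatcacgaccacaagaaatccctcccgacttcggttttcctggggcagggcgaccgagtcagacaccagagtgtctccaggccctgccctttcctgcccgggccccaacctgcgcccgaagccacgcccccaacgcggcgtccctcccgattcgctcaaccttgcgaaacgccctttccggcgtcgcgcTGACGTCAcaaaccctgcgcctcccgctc
It begins at position -67 from the start of Ndufa10, at -169 from that of Cycs and at -29 from that of Uqcrfs1. The arrays of these genes did not overlap between the depots. Cycs, cytochrome c, read 12.04 and 12.13 in white and 13.02 and 12.99 in brown (0.92 ± 0.15, adjusted p = 0.0271). Uqcrfs1, the iron-sulfur subunit of complex III, read 11.75 and 11.90 against 13.05 and 12.99 (1.19 ± 0.21, adjusted p = 0.03). Ndufa10, of complex I, read 11.47 and 11.73 against 12.81 and 12.76 (1.19 ± 0.17, adjusted p = 0.0203). The nuclear receptor element TCAAGGTCA, which contains AGGTCA, was rare everywhere, at 0.347% of all promoters and 0.313% of those of genes higher in brown.

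Ribosomal protein genes were read for both compartments. Of 76 mitochondrial ribosomal protein genes 12 (15.8%) were called higher in brown and 0 higher in white. Their median was 0.37, and 52 members had both brown arrays on top. Mrps36, an accessory subunit now placed in the oxoglutarate dehydrogenase complex, read 10.41 and 10.53 in white and 11.79 and 11.92 in brown (1.38 ± 0.17, adjusted p = 0.0138). Mrps27 and Mrpl34 differed by 1.31 ± 0.26 and 1.27 ± 0.22. Of 43 cytosolic ribosomal protein genes 0 were called by limma in either direction, with a median of -0.21, a sign it kept in every alternative run. Both white arrays lay above both brown arrays in 32 of the 43, as for Rplp0 at 12.70 and 12.69 against 12.27 and 12.29 (-0.41 ± 0.15, adjusted p = 0.16). The largest difference in the list was in Rpl39l, the tissue-restricted paralogue of Rpl39, at 5.86 and 4.86 in white and 8.47 and 9.24 in brown (3.50 ± 0.91, adjusted p = 0.0796), which passed with the 4 arrays alone (adjusted p = 0.017). Genes that maintain the mitochondrial genome and import proteins had 4 of 24 (16.7%) called higher in brown. Among them were the transcription factors Gabpa (1.14 ± 0.21) and Tfb2m (1.02 ± 0.17) and the cristae protein Immt (1.01 ± 0.16).

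**Figure D3:**
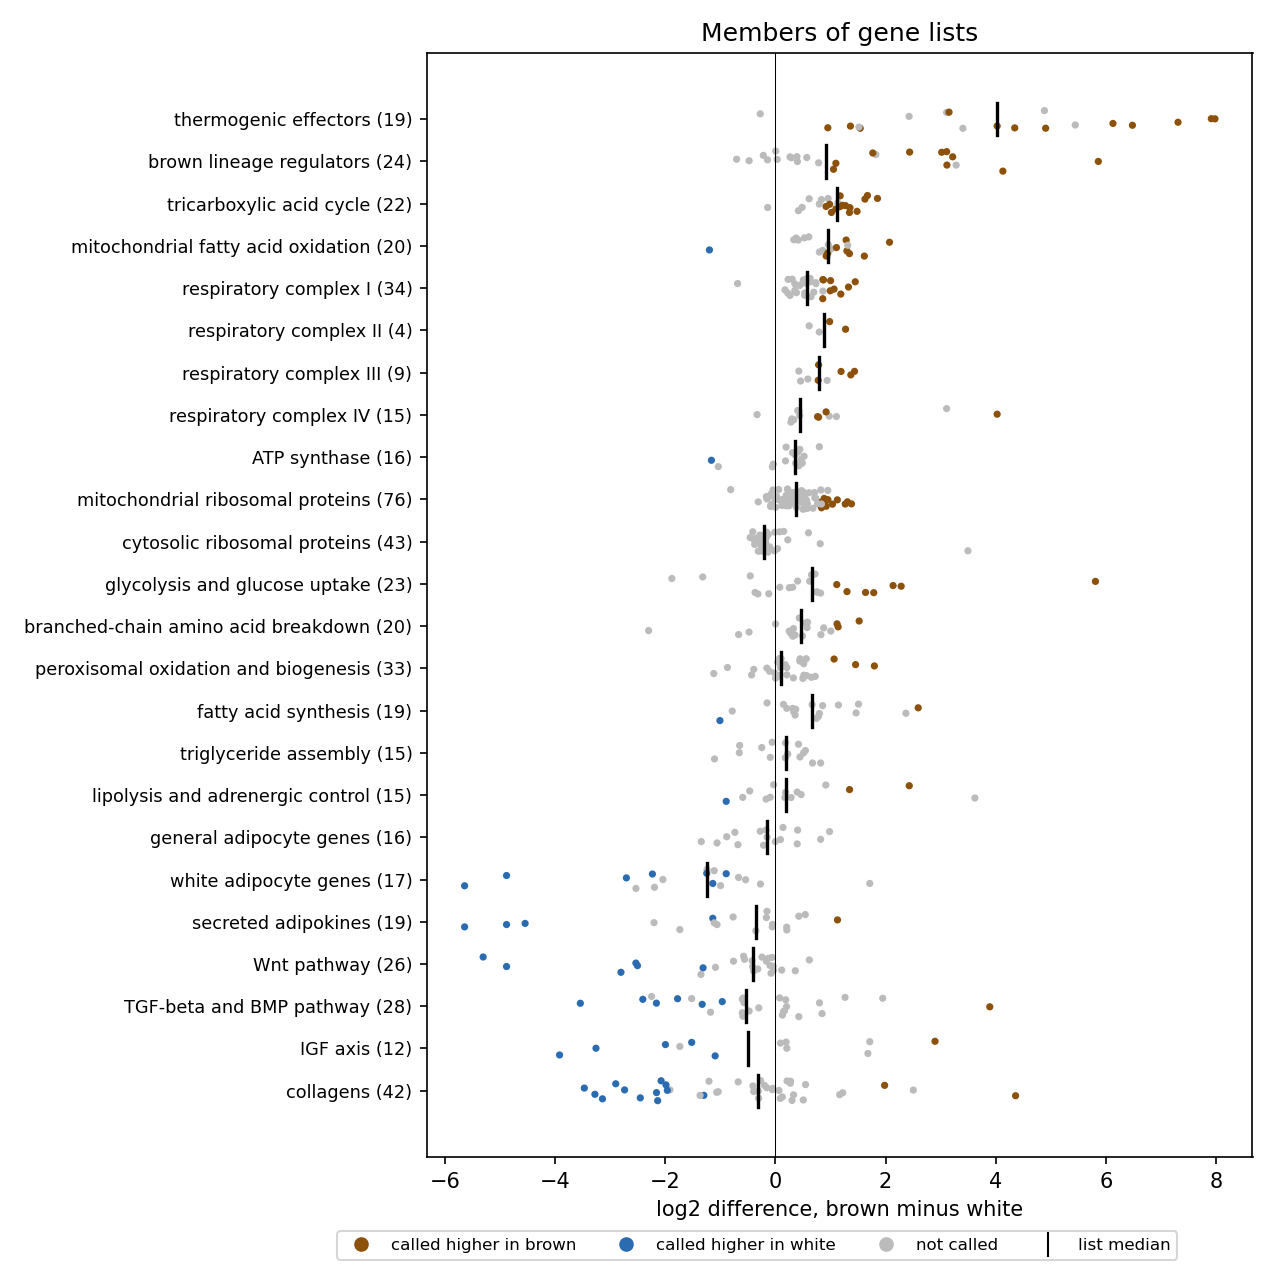
Log2 difference, brown minus white, of every measured member of 24 gene lists (number of members in brackets), with members called higher in brown in brown, higher in white in blue and not called in grey, and the list median as a black bar. The thermogenic list is centred at 4.03, the mitochondrial lists between 0.36 and 1.11 and the white adipocyte genes at -1.24.

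Carriers of the inner mitochondrial membrane were called higher in brown in 6 of 24 members (25%), against 5.34% of all genes. Besides Ucp1 they included Slc25a34, an orphan carrier that read 4.53 and 4.76 in white and 8.41 and 8.22 in brown (3.67 ± 0.21, adjusted p = 0.00472), and Slc25a42, a coenzyme A carrier (2.25 ± 0.33, adjusted p = 0.0201). Slc25a48, outside that list and among the 5 smallest adjusted p-values in brown, read 3.97 and 3.92 against 7.86 and 7.90 (3.93 ± 0.17, adjusted p = 0.00316). In all 3 both brown arrays lay above both white arrays, by the least in Slc25a42.

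Genes of sugar breakdown were also called in brown. Of 23 genes of glycolysis and glucose uptake 7 (30.4%) were called higher in brown and 0 higher in white, with a median of 0.65. Slc2a5, a fructose transporter, read 4.63 and 4.68 in white and 10.01 and 10.93 in brown (5.81 ± 0.33, adjusted p = 0.00472). The phosphofructokinase genes Pfkl and Pfkm differed by 2.14 ± 0.19 and 1.78 ± 0.37, the hexokinase Hk1 by 1.64 ± 0.26 and the lactate dehydrogenase Ldhd, which uses D-lactate, by 2.28 ± 0.26. The insulin-responsive transporter Slc2a4 (0.40) and the ubiquitous Slc2a1 (-0.37) were not called. Branched-chain amino acid breakdown had 3 of 20 (15%) called higher in brown. They were the dehydrogenase subunit Bckdha (1.52 ± 0.19), its kinase Bckdk (1.12 ± 0.21) and the carboxylase subunit Pccb (1.14 ± 0.20). The cytosolic transaminase Bcat1, named after its values were seen, lay the other way at 10.82 and 9.65 in white and 8.21 and 7.65 in brown (-2.31 ± 0.53, adjusted p = 0.0589).

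Genes of fat storage and release were called at shares that varied by list, against 5.34% of all genes higher in brown and 3.87% higher in white. Of 19 fatty acid synthesis genes 1 (5.26%) was called each way, although both brown arrays lay above both white arrays in 15. Their median was 0.67, and with the 4 arrays alone 4 were called higher in brown. Acacb, the acetyl-CoA carboxylase of the outer mitochondrial membrane, read 9.58 and 11.04 in white and 12.82 and 12.98 in brown (2.59 ± 0.47, adjusted p = 0.0339). Elovl1, an elongase of very long chains, was higher in white (-1.01 ± 0.17, adjusted p = 0.0288). Fasn, fatty acid synthase, read 12.22 and 12.87 against 13.36 and 13.30 (0.78 ± 0.82, adjusted p = 0.605). Of 14 genes of fatty acid uptake and activation 3 (21.4%) were called higher in brown, namely Slc27a2, Fabp3 and the endothelial Gpihbp1, and 0 higher in white. Slc27a2 and Fabp3 are also counted among the thermogenic effectors. Triglyceride assembly had 0 of 15 called by limma, with 1 called each way with the 4 arrays alone and a median of 0.18. Of 15 lipolysis genes 2 (13.3%) were called higher in brown and 1 (6.67%) higher in white. The natriuretic peptide receptors split, with the signalling receptor Npr1 higher in brown at 4.92 and 3.79 against 7.30 and 6.27 (2.43 ± 0.50, adjusted p = 0.0447). Npr1 was not called with the 4 arrays alone (adjusted p = 0.0526). Npr3, the clearance receptor, was higher in white at 12.44 and 12.71 against 11.66 and 11.69 (-0.90 ± 0.17, adjusted p = 0.0397). Pde4d, which degrades cAMP, was higher in brown (1.35 ± 0.19, adjusted p = 0.0187). Plin5, the droplet protein that docks mitochondria, read 7.91 and 8.14 in white and 11.67 and 11.63 in brown and missed the threshold (3.62 ± 0.81, adjusted p = 0.0566), with marrow-derived arrays at 6.30 and 3.70. Of 33 peroxisomal genes 3 were called higher in brown, Acox2 (1.80 ± 0.23), Amacr (1.46 ± 0.23) and Pex6 (1.06 ± 0.21), a share of 9.09% against 5.34% of all genes, and the median was 0.10.

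Small energy circuits that have been described in fat were mixed. Of 15 creatine and calcium cycling genes 2 (13.3%) were called higher in brown and 1 (6.67%) higher in white. Alpl, an alkaline phosphatase, read 6.10 and 5.82 in white and 9.81 and 9.35 in brown (3.62 ± 0.23, adjusted p = 0.0049), and the calcium release channel Itpr2 differed by 1.96 ± 0.20 (adjusted p = 0.0109). Gamt, the last enzyme of creatine synthesis, was higher in white at 10.01 and 10.53 against 7.53 and 7.91 (-2.55 ± 0.28, adjusted p = 0.0123). Of 7 AMP kinase subunits 1 was called in each direction. Prkab1 differed by 1.39 ± 0.18 (adjusted p = 0.0164), and Prkag3, a regulatory subunit best known from skeletal muscle, read 9.87 and 10.40 in white and 6.79 and 6.02 in brown (-3.73 ± 0.32, adjusted p = 0.00853), or 13.2-fold higher in white. The other 5 subunits were not called. In retinoid handling the degrading enzyme Cyp26b1 (3.33 ± 0.67) and the carrier Rbp7 (2.5 ± 0.37) were higher in brown and the retinaldehyde dehydrogenase Aldh1a1 higher in white (-2.26 ± 0.28). Besides the receptors already named, the nuclear receptors Nr5a2 (2.09 ± 0.39) and Pgr (2.0 ± 0.26) were higher in brown, Pgr from a low level of 2.56 and 2.43 to 4.83 and 4.16. With the mean of all its probe sets Pgr differed by 0.54 and was not called (adjusted p = 0.117). The clock-controlled factor Hlf was the only called member of 17 circadian genes (1.62 ± 0.17, adjusted p = 0.012). Alas2, the erythroid form of the enzyme that starts heme synthesis, was the only called member of 16 heme and iron genes (2.5 ± 0.48, adjusted p = 0.0378).

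White adipocyte genes were called higher in white in 7 of 17 members (41.2%) and higher in brown in 0, with a median of -1.24, and 16 had both white arrays on top. Lep, leptin, the satiety hormone, read 12.99 and 12.97 in white and 11.83 and 11.86 in brown. The arrays of each depot were nearly identical and the gap was modest, at -1.14 ± 0.21 (adjusted p = 0.0338), or 2.20-fold. Agt, angiotensinogen, read 9.34 and 11.15 in white and 3.92 and 5.27 in brown (-5.65 ± 0.71, adjusted p = 0.0152), the largest difference among genes called higher in white. Sfrp5, a secreted Wnt inhibitor, read 11.31 on both white arrays and 6.65 and 6.20 on the brown arrays (-4.89 ± 0.47, adjusted p = 0.00996). These differed far more than leptin. The imprinted gene Mest (-2.71 ± 0.42), the serine synthesis enzyme Psat1 (-2.24 ± 0.46) and the corepressor Nrip1 (-1.25 ± 0.27) were called as well, though Nrip1 was not with the 4 arrays alone (adjusted p = 0.0513).

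The 250 bases before the start of Lep are shown for comparison with those of Ucp1 and Slc27a2, with capitals on TTGCGCAA, the palindrome bound by C/EBP factors.
Lep chr6:29059971-29060220 (+ strand): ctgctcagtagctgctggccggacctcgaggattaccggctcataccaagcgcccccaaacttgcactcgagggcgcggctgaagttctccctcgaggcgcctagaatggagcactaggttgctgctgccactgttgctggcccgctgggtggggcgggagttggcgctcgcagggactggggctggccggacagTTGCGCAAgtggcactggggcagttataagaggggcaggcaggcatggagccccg
The palindrome begins at position -55. It was found in 0.245% of all promoters, in 0.301% of those of genes higher in white and in 0 of 959 promoters of genes higher in brown. Such rare matches are too few for a comparison between the depots.

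Among 19 secreted adipokines 4 (21.1%) were called higher in white and 1 (5.26%) higher in brown. Those higher in white were Agt, Sfrp5 and Lep, already given with the white adipocyte genes, and Lcn2. Lcn2, lipocalin, read 9.38 and 10.97 in white and 5.34 and 5.92 in brown (-4.55 ± 0.58, adjusted p = 0.0154), or 23.4-fold higher in white. The only adipokine called higher in brown was Nampt, the enzyme of NAD synthesis that is also secreted (1.13 ± 0.18, adjusted p = 0.0242). Many of the largest differences in white lay outside the adipokine list. The oxytocin receptor Oxtr read 11.82 and 11.81 in white and 6.32 and 7.35 in brown (-4.98 ± 0.51, adjusted p = 0.0109), and the secreted matrix protein Ccn5 read 9.09 and 8.35 against 3.61 and 3.21 (-5.31 ± 0.31, adjusted p = 0.00472). The calcium channel Cacna1e had the smallest adjusted p in this direction, with 8.52 and 8.68 in white and 3.98 and 3.93 in brown (-4.64 ± 0.16, adjusted p = 0.0014). The sodium pump subunit Atp1a4 (-4.58 ± 0.20), the monoacylglycerol transferase Mogat2 (-4.65 ± 0.35), the small heat shock protein Hspb7 (-4.75 ± 0.52), the exchanger Slc9b2 (-4.70 ± 0.35), the protease inhibitor Timp1 (-5.0 ± 0.50) and the complement component C6 (-4.89 ± 0.58) followed. Ptchd4, Olfml3 and Fam110c differed by -4.97, -4.68 and -4.78. Folh1 (-4.13), Tmeff2 (-3.75) and Ndrg4 (-3.47) had smaller differences and small adjusted p-values, from 0.00333 to 0.0043.

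Other large differences in brown lay outside the thermogenic list. Nts, neurotensin, a peptide hormone, read 3.90 on both white arrays and 9.92 and 11.24 in brown (6.68 ± 0.80, adjusted p = 0.0138). Lgr6, a receptor for R-spondins, read 3.10 and 3.0 in white and 9.55 and 9.19 in brown (6.32 ± 0.19, adjusted p = 0.00137), and Sorcs2, a sorting receptor for neurotrophins, read 3.15 and 3.36 against 8.29 and 9.20 (5.49 ± 0.33, adjusted p = 0.0049). Ptgds, a prostaglandin D synthase, differed by 5.61 ± 0.82 (adjusted p = 0.0198), with 6.17 and 6.07 against 11.93 and 11.53. In each of these the white arrays lay close together and far under both brown arrays. The asparaginase Aspg (5.55 ± 0.32), the ferlin Fer1l6 (5.52 ± 0.41), the mitochondrial malic enzyme Me3 (5.18 ± 0.68), the neuronal calcium sensor Hpcal4 (4.72 ± 0.20) and the noncoding transcript Plet1os (6.74 ± 0.34) completed the group.

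Positional genes split by cluster. Of 9 measured Hoxa genes 4 were called higher in brown and 0 higher in white, with a median of 1.85, while of 7 Hoxc genes 2 were called higher in white and 0 higher in brown. Hox genes encode the homeodomain factors that keep a record of position along the body axis. Hoxa9 read 3.78 and 3.59 in white and 5.98 and 6.49 in brown (2.55 ± 0.25, adjusted p = 0.0101), and Hoxa4 read 5.44 and 6.34 against 8.52 and 8.15 (2.44 ± 0.34, adjusted p = 0.0179). Hoxa3 (2.15 ± 0.34) and Hoxa2 (1.85 ± 0.36) were called too. Hoxa5 read 6.61 and 7.49 against 9.10 and 8.70 and missed the threshold (1.85 ± 0.42, adjusted p = 0.0587), passing with the 4 arrays alone (adjusted p = 0.0396). Hoxa7, between the called genes in the cluster, differed by -0.03. In the other direction Hoxc8 read 11.62 and 11.92 in white and 9.12 and 9.31 in brown (-2.56 ± 0.21, adjusted p = 0.00754). Hoxc9 read 7.25 and 8.42 against 5.41 and 5.17 (-2.55 ± 0.47, adjusted p = 0.0344). Hoxc10 stood near the bottom of the table in both depots, at 3.18 and 3.62 in white and 3.28 and 2.90 in brown. Of the Hoxb genes 1 of 9, Hoxb9, was called higher in brown (1.5 ± 0.29), and of 8 Hoxd genes 0 were called by limma, with 1, Hoxd10, called with the 4 arrays alone (1.14, adjusted p = 0.0297).

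**Figure D4:**
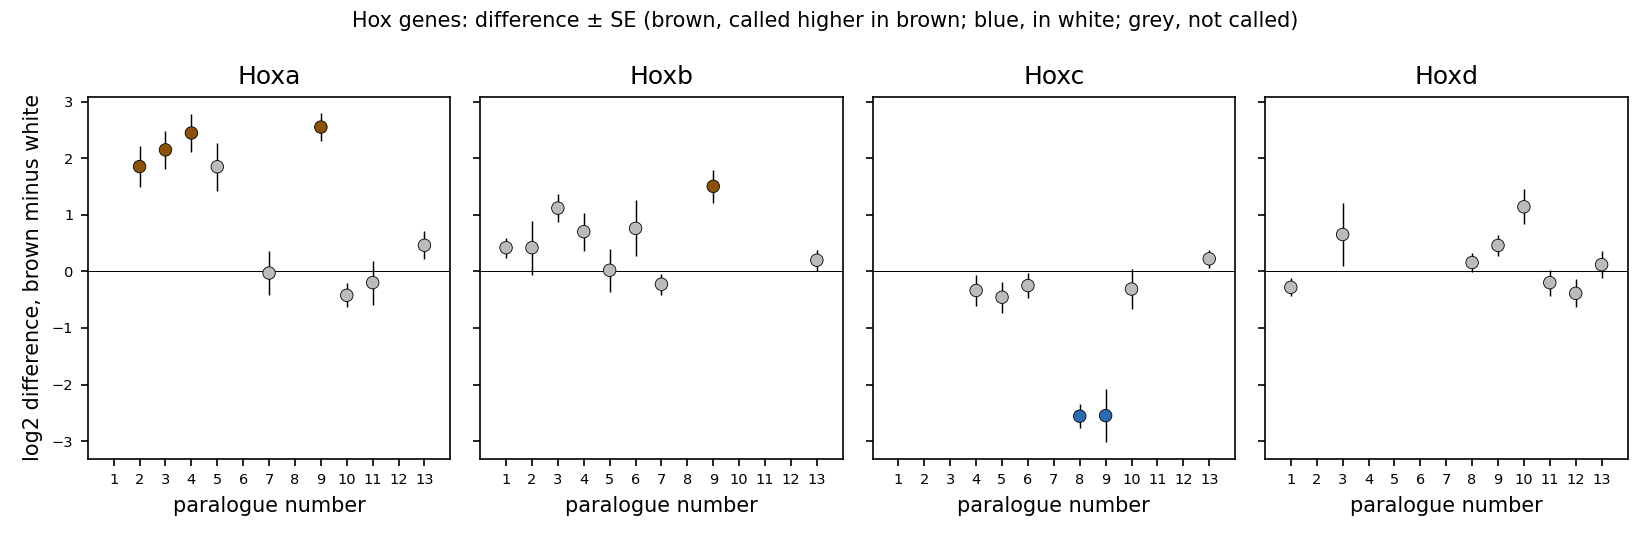
Log2 difference, brown minus white, of each measured Hox gene (points) with limma's standard error (bars), by cluster and paralogue number. Hoxa2, Hoxa3, Hoxa4 and Hoxa9 lie between 1.85 and 2.55 above equality and Hoxc8 and Hoxc9 at -2.56 and -2.55, and the remaining points save Hoxb9 were not called.

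Among 31 other patterning factors 6 (19.4%) were called higher in brown and 1 (3.23%) higher in white. Of those higher in brown, Zic1, Tbx15 and Meox2 were already counted among the brown lineage regulators. Shox2, a homeobox gene of the limb and heart, read 3.63 and 2.81 in white and 7.50 and 8.22 in brown (4.65 ± 0.38, adjusted p = 0.00746). Tbx5, a T-box gene of the forelimb and heart, read 4.02 and 4.41 against 7.31 and 7.17 (3.02 ± 0.25, adjusted p = 0.00795), and Irx5 differed by 1.39 ± 0.17 (adjusted p = 0.0147). Their arrays did not overlap between the depots. The gene called higher in white was Emx2, a homeobox gene of the urogenital tract, at low levels of 3.47 and 3.61 against 2.55 and 2.77 (-0.88 ± 0.18, adjusted p = 0.0435). Wt1 and Tcf21, which mark visceral fat and mesothelium, missed the threshold. Wt1 read 6.24 and 6.18 in white and 3.71 and 4.30 in brown (-2.20 ± 0.57, adjusted p = 0.0764), and passed with the 4 arrays alone (adjusted p = 0.0142). Tcf21 read 6.43 and 4.32 against 2.59 and 3.09 (-2.54 ± 0.75, adjusted p = 0.108).

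Secreted ligands and their inhibitors were called in both directions. Mesothelial and fibroblast markers were also higher in white, as given below, and their part in the genes called higher in white here was not tested. In the IGF axis 5 of 12 members (41.7%) were called higher in white and 1 (8.33%) higher in brown, against 3.87% and 5.34% of all genes. All 5 bind IGF or its carriers, with Igfbp6 at 7.94 and 7.58 in white and 4.02 and 3.66 in brown (-3.92 ± 0.81, adjusted p = 0.0459). Igfals, the acid-labile subunit, differed by -3.26 ± 0.60, Igfbp4 by -2.0 ± 0.30, Igfbp5 by -1.52 ± 0.30 and Igfbp2 by -1.10 ± 0.22. The growth factor Igf2 was higher in brown, at 5.28 and 3.92 against 7.77 and 7.24 (2.90 ± 0.54, adjusted p = 0.0362). In the TGF-beta and BMP pathway 6 of 28 members (21.4%) were called higher in white and 1 (3.57%) higher in brown. Bmp6 read 7.34 and 6.54 in white and 11.07 and 10.60 in brown (3.89 ± 0.36, adjusted p = 0.0098). The BMP antagonist Chrdl1 read 11.27 and 11.21 in white and 7.41 and 7.97 in brown (-3.55 ± 0.38, adjusted p = 0.0121), and Tgfb3 (-2.41 ± 0.24), the BMP modulator Bmper (-2.16 ± 0.23), Bmp2 (-1.78 ± 0.32), the activin subunit Inhbb (-1.33 ± 0.22) and the receptor Bmpr1a (-0.97 ± 0.15) were also higher in white.

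Of 26 Wnt pathway genes 6 (23.1%) were called higher in white and 0 higher in brown. Besides Sfrp5 and Ccn5 they were the secreted inhibitors Sfrp2 (-2.81 ± 0.44) and Sfrp1 (-2.51 ± 0.48), the ligand Wnt5b (-2.54 ± 0.27) and the receptor Fzd5 (-1.32 ± 0.28). Of 17 angiogenic ligands Fgf2 (-2.52 ± 0.53), Hgf (-2.41 ± 0.43) and Vegfd (-1.96 ± 0.29) were higher in white and Pdgfb higher in brown (2.60 ± 0.53), while the main endothelial growth factor Vegfa differed by 0.21 and was not called. With the 4 arrays alone Fgf2 was not called either (adjusted p = 0.0567). Of 16 neurotrophic and innervation genes Ntrk3 and S100b, given above, were higher in brown and 1 was higher in white. This was the guidance cue Sema3c, which read 10.69 and 11.06 in white and 7.13 and 7.94 in brown (-3.33 ± 0.36, adjusted p = 0.0121). Collagens were called higher in white in 12 of 42 members (28.6%) and higher in brown in 2 (4.76%). Col6a2 read 11.26 and 11.68 in white and 8.42 and 7.57 in brown (-3.47 ± 0.36, adjusted p = 0.0111), and Col1a2, Col6a1, Col15a1 and Col1a1 differed by -3.28, -3.14, -2.90 and -2.74. The collagens higher in brown were Col27a1, at 5.84 and 4.47 against 9.73 and 9.30 (4.36 ± 0.48, adjusted p = 0.0123), and Col19a1 (1.98 ± 0.22), which with the mean of all its probe sets differed by 0.66 and was not called (adjusted p = 0.0538). Fibroblast and mesothelial markers were also higher in white, as given next, and their part in these differences was not tested. The collagen and fibroblast lists are not separate, since Col1a1 and Col3a1 are counted in both.

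The sorted cells were not free of RNA from other cell types, by the markers on the arrays, and several of these marker lists differed between the depots. In bulk RNA fewer cells of a type and less RNA per cell cannot be told apart. Endothelial markers were called higher in brown in 11 of 13 members, with a median of 2.99 and a mean level of 8.36 and 7.33 on the white arrays and 10.87 and 10.40 on the brown arrays. Tie1, an orphan receptor of endothelium, read 7.92 and 6.70 in white and 11.41 and 10.56 in brown (3.67 ± 0.52, adjusted p = 0.0184). Kdr, the main VEGF receptor, read 9.16 and 8.44 against 12.07 and 11.88 (3.18 ± 0.34, adjusted p = 0.012). The sialomucin Emcn (3.39), the angiopoietin receptor Tek (3.14), Flt1 (3.08) and Pecam1 (3.06 ± 0.50, adjusted p = 0.0257) were called as well, whereas Vwf (0.63) and Cldn5 (2.12) were not. Gpihbp1, the endothelial protein that anchors lipoprotein lipase in capillaries, was higher in brown at 12.22 on both arrays against 10.32 and 9.32 (2.40 ± 0.34, adjusted p = 0.0186), as were the pericyte marker Rgs5 (1.88 ± 0.34) and Des (1.40 ± 0.28). The part of endothelial RNA in the levels of Gpihbp1, Bmp6, Pdgfb, Igf2, Meox2 and Mecom in brown was not tested. Nor was it tested for Npr1, Rbp7, Cyp26b1, Nr5a2 and Hoxa9, whose marrow-derived means lay above their brown means. The endothelial list had the same order, with a mean level of 11.42 and 11.93 on the marrow-derived arrays.

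Mesothelial, fibroblast and macrophage markers lay the other way. All 12 mesothelial markers had both white arrays above both brown arrays, with a median of -2.44, and 6 were called, or all 12 with the 4 arrays alone. Their mean level was 6.90 and 6.81 in white and 3.70 and 4.05 in brown. Upk3b, a uroplakin, read 9.25 and 8.83 in white and 3.38 and 4.00 in brown (-5.35 ± 0.68, adjusted p = 0.0154), and the keratin Krt19 read 8.39 and 8.18 against 3.28 and 3.54 (-4.88 ± 0.58, adjusted p = 0.0138). Gpm6a (-4.38), Bnc1 (-4.17), Krt18 (-3.21), Krt8 (-1.91) and, outside the list, the sialoglycoprotein Pdpn (-4.85 ± 0.54) followed. On the brown arrays these defining markers stood near the bottom of the table. Of 14 fibroblast and fat progenitor markers 5 (35.7%) were called higher in white and 1 (7.14%) higher in brown. Those higher in white included Dcn (-3.58 ± 0.70), Mfap5 (-3.55 ± 0.59), Dpp4 (-3.51 ± 0.64) and Col3a1 (-1.3 ± 0.17). Postn was called higher in brown (2.23 ± 0.47), but not with the 4 arrays alone (adjusted p = 0.0575). The mean level of the list was 9.58 and 8.48 in white and 8.10 and 7.48 in brown. The smooth muscle actin Acta2 was higher in white (-2.68 ± 0.39, adjusted p = 0.0195).

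Macrophage markers had both white arrays above both brown arrays in all 29 members, but limma called 0 of them, or 6 higher in white with the 4 arrays alone. Their mean level was 11.08 and 9.5 in white and 8.43 and 7.59 in brown, so replicate 1 was the higher in both depots. The median difference was -2.34, and it was -1.54 without white replicate 1 and -3.09 without white replicate 2. Adgre1, an adhesion receptor that defines tissue macrophages, read 11.70 and 9.58 in white and 8.81 and 7.26 in brown (-2.61 ± 1.3, adjusted p = 0.282), and Csf1r read 12.69 and 11.57 against 10.70 and 9.79 (-1.88 ± 0.79, adjusted p = 0.214). Ptprc, the pan-leukocyte antigen, read 10.89 and 8.80 against 8.36 and 7.32 (-2.01 ± 1.23, adjusted p = 0.373). The lysosomal glycoprotein Gpnmb differed by -3.68 ± 1.46 (adjusted p = 0.192). Cell cycle genes were higher in both white arrays in 12 of 18 members and called in 1, Aurkb (-2.41 ± 0.46, adjusted p = 0.0386). Their mean level was 7.76 and 6.55 in white and 6.024 and 6.025 in brown. The median of -0.87 became -0.35 without white replicate 1 and -1.52 without white replicate 2. The relation of these genes to the macrophage gap was not tested.

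Other marker lists were low or mixed. Skeletal muscle markers had a mean level of 4.61 and 4.56 in white and 5.57 and 4.16 in brown, with 0 of 19 called by limma with either set of arrays. Brown replicate 1 held more of them than brown replicate 2, as in Tnnt3 at 8.76 and 4.17, and the skeletal actin Acta1 differed by -1.3 ± 0.87 (adjusted p = 0.411). Epididymal markers had both white arrays above both brown arrays in 8 of 8, with a mean level of 5.67 and 4.36 in white and 3.64 and 3.59 in brown, and 0 were called by limma with either set of arrays. Their median of -1.48 became -0.49 without white replicate 1 and -2.04 without white replicate 2, since white replicate 1 alone was raised in genes such as Gpx5, at 6.29 against 3.13 in white replicate 2. Neutrophil markers had a mean level of 5.37 and 5.30 in white and 4.47 and 4.41 in brown. T and NK cell markers had 5.35 and 4.58 against 4.68 and 4.6, and B cell markers 7.05 and 6.18 against 6.53 and 6.37. Ighm was the only member of these lists called in the main fit, higher in white (-2.12 ± 0.20, adjusted p = 0.00996). With the 4 arrays alone 2 neutrophil markers were called higher in white, among them S100a8 (-3.79, adjusted p = 0.00896). In that fit 2 B cell markers were called higher in brown and 1 higher in white. S100b, counted above with the thermogenic genes, was the only called member of 11 Schwann cell and neuron markers. Of 10 erythroid markers the carbonic anhydrase Car2 (2.25 ± 0.32), the globin Hbb-b2 (1.19 ± 0.20) and Alas2 were called higher in brown and Car1 higher in white (-2.94 ± 0.54), and of 11 ovary and uterus markers 0 were called by limma with either set of arrays. Xist, transcribed from the inactive X of female cells, lay near the bottom of the table, at 2.99 and 3.35 in white and 3.39 and 3.36 in brown. The Y-linked Eif2s3y lay high, at 11.43 and 10.80 against 11.61 and 11.19. This is the pattern of male cells in both depots, and neither gene was called between them. The marrow-derived arrays read 10.9 and 10.8 for Xist, so they held RNA of female cells.

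**Figure D5:**
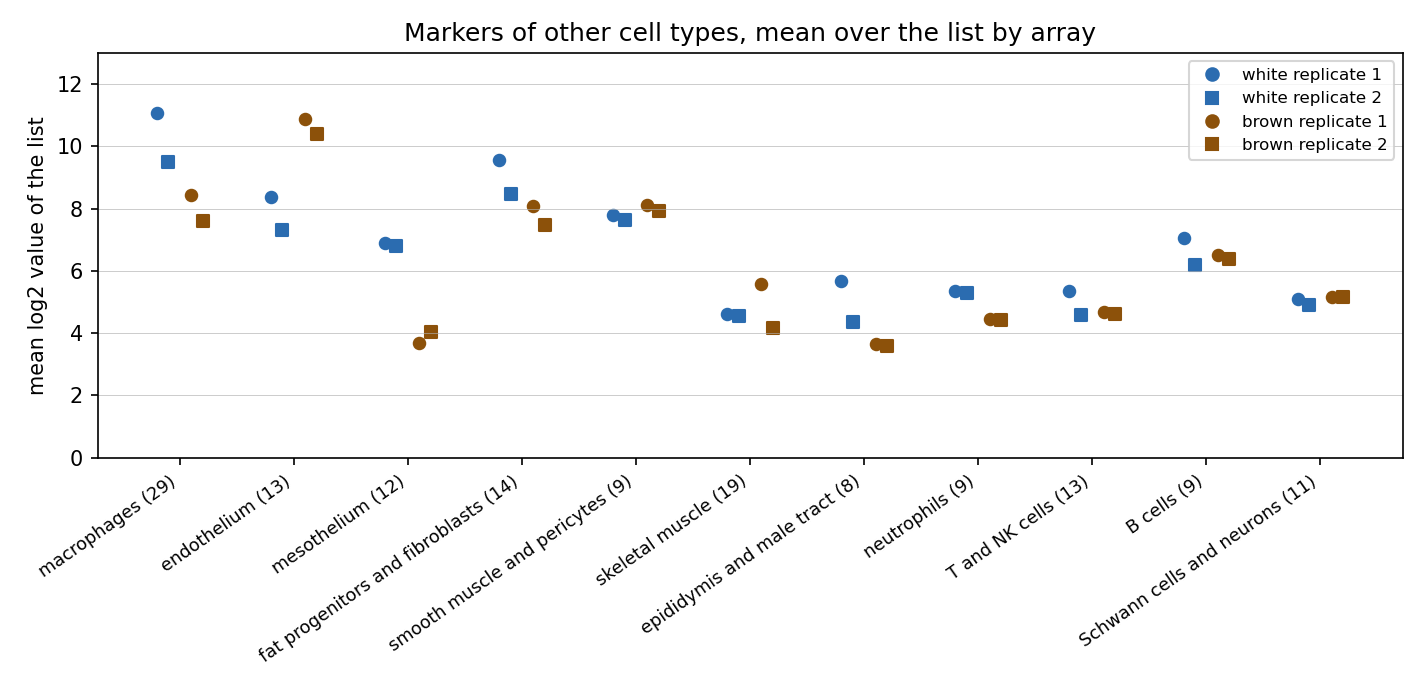
Mean log2 value over the markers of each cell type (number of markers in brackets) on each white (blue) and brown (brown) array, with circles for replicate 1 and squares for replicate 2. Endothelial markers are higher on the brown arrays (10.87 and 10.40 against 8.36 and 7.33), and macrophage and mesothelial markers are higher on the white arrays.

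Of 23 immediate early and heat shock genes 2 (8.7%) were called higher in brown and 1 (4.35%) higher in white, against 5.34% and 3.87% of all genes. Those higher in brown were the inducible heat shock genes Hspa1a and Hspa1b. Hspa1a read 5.77 and 5.13 in white and 10.16 and 9.42 in brown (4.34 ± 0.51, adjusted p = 0.0137), and Hspa1b read 9.27 and 8.80 against 12.67 and 12.50 (3.55 ± 0.34, adjusted p = 0.01). These genes are near-identical copies, and their probe sets may not tell them apart. Fosl1 was higher in white (-1.89 ± 0.31, adjusted p = 0.0259), and Fos (-0.05), Egr1 (0.29) and Hsph1 (-0.18) were not called.

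Other probe sets of the same genes mostly pointed the same way. The 516 genes called higher in brown that had further probe sets held 941 of them, of which 862 (91.6%) differed in the same direction, 396 were called the same way and 0 the opposite way. The 345 such genes called higher in white held 607, of which 550 (90.6%) had the same direction, 259 were called the same way and 3 the opposite way. The low group's mean lay under 4 in 141 of the genes called higher in brown and in 123 of those called higher in white, where a difference understates the fold. The marrow-derived mean lay nearer white than brown in 357 of the 832 genes called at least 2-fold higher in brown (42.9%) and in 214 of the 626 called at least 2-fold higher in white (34.2%). With the mean of all probe sets of a gene in place of 1, Acacb (1.15), Nr5a2 (1.10), Hoxa3 (1.11) and Des (0.85) were no longer called higher in brown. Dpp4 (-1.61), Fosl1 (-1.16) and Ighm (-1.02) were no longer called higher in white, and Hbb-b2 (0.78) lost its call in brown as well. In the same setting Prdm16, Hk1, Pex6 and Pdgfb lost their calls in brown, and Aurkb and Nrip1 theirs in white.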

How the data were processed

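The study measured amplified RNA of sorted adipocytes, with 2 arrays for each group. The deposited table holds log2 values, an array to a column and a probe set to a row. The submitters' processing notes name RMA and Partek without saying what each did or in which version. No label states the log base, which was read from the values (array medians 5.46 to 5.72). RMA gives no detection calls, and precision is limited by having 2 arrays in a group.

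The table has 43057 probe sets. The platform annotation gave a single symbol for 33565 of them and several for 857, while 8635 had no name here. By gene ID 33376 matched RefSeq's gene table (GRCm38.p6), with 0 symbols changed. A gene with more than 1 probe set was read from that with the highest mean of all 6 arrays, which left 17720 genes. Ddx3y was not analysed here. Group means of all 6 arrays were fitted with limma 3.58.1 in R 4.3.3, with contrasts, empirical Bayes moderation (3 residual and 2.35 prior degrees of freedom) and two-sided tests, a step tested on simulated data. Gene lists are described by counts and medians.

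The genes and lists were chosen with earlier results of these data known. Named are the 15 largest called, non-overlapping differences and the 5 smallest adjusted p-values in each direction, up to 5 called members of each list per direction (or its largest difference, as a value) and a set of standard markers. Some genes picked outside that rule are marked in the text. Others are not marked, among them Ppargc1b, Fasn, Plin5, Rplp0, Pank1, Mecom, Irx5 and Fabp4. Most further list members appear with their difference only. Promoters came from RefSeq, for 13995 of the genes. Alternatives were each replicate left out, the 4 arrays alone, a replicate block, median centring, quantile normalization, the mean of probe sets, a filter at 5, a trended robust prior and an ordinary linear model.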

Additional observations from a re-analysis of the deposited data

How the results depend on the processing

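Counts of calls are given as higher in brown and higher in white. They were 946 and 686, and 832 and 626 at least 2-fold. With the 4 white and brown arrays alone they were 1215 and 1036, and leaving out either marrow-derived array gave the same counts, since a lone array adds no residual degree of freedom. Over the alternatives that left out 1 array the counts ran from 5 to 1215 higher in brown and from 0 to 1036 higher in white, and at least 2-fold from 5 to 1018 and from 0 to 925, the lowest without a brown array. The ordinary linear model, without moderation, called 0 and 0 (2047 and 1833 at an unadjusted p under 0.05). The numbers of the replicates do not mark shared animals in the labels, so they were not treated as pairs. The deviations of same-numbered white and brown arrays did correlate, at 0.277, and whether such arrays shared a day or handling was not tested. The replicate block gave 640 and 624, of which 618 and 492 were among the main calls. Under it 38 named genes lost the call, among them Lep, Prdm16, Npr3, Igf2 and Sdhb. Median centring gave 1017 and 600, quantile normalization 1012 and 618, the mean of probe sets 940 and 726, the filter 919 and 699 over 12686 genes, and the trended prior 1138 and 836.

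Of 182 named genes that were called, 0 kept the call in every alternative, and Slc27a2, Lgr6 and Zic1 kept it in all but the ordinary linear model. The sign turned in 2 uncalled genes, Eif2s3y, which ran from -0.032 without white replicate 2 to 0.60 without white replicate 1, and Pparg, which ran from -0.10 without white replicate 1 to 0.28 without white replicate 2. The median kept its sign in 46 of 56 lists, and the other 10 had medians near 0.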

Other observations

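Probe sets without a gene name behaved unlike named ones in the direction of their calls. Of the 8635 unnamed probe sets limma called 402 higher in brown and 69 higher in white, so 85.4% of their calls were higher in brown, against 57.7% of the calls among the 33565 probe sets with 1 symbol (1520 and 1113). With the 4 arrays alone, median centring and quantile normalization the share for unnamed probe sets was 82.3%, 85.9% and 84.8%. Their median level was 3.74, against 6.42 for the named ones, and their median difference was 0.13, against -0.03.

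On chromosome 6 the neighbouring GTPase genes Gimap8, Gimap9, Gimap4 and Gimap6, which are expressed in lymphocytes and endothelium, were all called higher in brown, by 3.09 ± 0.44, 2.31 ± 0.19, 3.16 ± 0.44 and 2.47 ± 0.42. Gimap8 read 8.17 and 6.86 in white and 10.75 and 10.46 in brown, beside the endothelial markers that were higher in brown. On chromosome 11 the run Unc45b, Unc45bos, Slfn5os and Slfn5 was called in the same direction, by 3.18, 2.28, 3.26 and 1.46, and antisense partners may share signal. These 2 were the runs of at least 4 neighbouring tested genes called the same way, and they were chosen after their values were seen.

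On the X chromosome 35 of 589 tested genes were called higher in white (5.94%) and 22 higher in brown (3.74%), against 3.87% and 5.34% of all genes. Chromosome 19 lay close to this, with 5.74% called higher in white and 4.39% higher in brown. Chromosomes 1 and 15 also had slightly more calls in white, and the remaining chromosomes had more in brown.

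The replicates of a depot differed in recognizable genes. White replicate 1 exceeded white replicate 2 in Gpx5 (6.29 and 3.13), Lcn8 (7.93 and 5.12) and Il7r (10.90 and 7.35). Brown replicate 1 exceeded brown replicate 2 in the muscle gene Tnnt3 (8.76 and 4.17) and in the macrophage gene Gpnmb (8.88 and 5.11).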
